A study of Mus musculus with 24 samples.

Results

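Rev-erbα binding was described around 3 repressor genes of the circadian clock, Bhlhe40, Bhlhe41 and Ciart (listed as Gm129 in the annotation used), out of 22350 protein-coding genes on mouse chromosomes 1 to 19 and X. The members of the description were all binding sites whose central base lay between 20 kb before the gene and 20 kb after it. These came to 8 of 9016 peaks in epididymal white adipose tissue (eWAT), 10 of 10687 peaks in brain, and 103 of 245360 ChIP-exo borders in liver. Bhlhe40 (ENSMUSG00000030103.5) lies at chr6:108610623-108616919 on the plus strand in the mm9 build. Bhlhe41 (ENSMUSG00000030256.5) lies at chr6:145806763-145814078 and Ciart (ENSMUSG00000038550.4) at chr3:95682426-95686174, both on the minus strand.

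Of the 24 samples of the series, which fall into 16 groups, 5 samples in 3 groups were used and 19 were not analysed here. The groups were Rev-erbalpha ChIP-seq of eWAT (2 libraries), Rev-erbalpha ChIP-seq of brain, namely its ventral tegmental area (1 library), and Rev-erbalpha ChIP-exo of liver (2 libraries). All 3 came from wild-type mice of strain C57BL/6 (genotype C57BL/6J) at zeitgeber time 10, the number of hours after lights on, with no treatment named. ChIP-exo digests each precipitated DNA strand with exonuclease until the bound protein stops it, so that a site leaves a border on the plus strand before it and one on the minus strand after it. Each group was represented by 1 list, so no spread between replicates could be computed and no difference was tested. The lists hold binding sites and not RNA, so the labelled tissues could not be checked against expressed markers. Read totals were unknown, and scores and signals were therefore compared only within a list.

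Rev-erbα is a nuclear receptor that represses transcription and is itself part of the clock. It can bind DNA directly, at an AGGTCA half-site flanked by A and T bases (the RORE) or at a tandem repeat of it (RevDR2), or it can be held at sites bound by other factors. The activators CLOCK and BMAL1 bind E-boxes such as CACGTG, and BHLHE40 and BHLHE41 (also called DEC1 and DEC2), of the basic helix-loop-helix Orange family, bind the same element and repress. CIART (also called CHRONO) represses CLOCK and BMAL1 by binding BMAL1, and D-boxes such as TTATGTAA are bound by DBP, TEF, HLF and NFIL3.

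The sequences below are the sites on which the results turn, the strongest ones of each gene in each tissue and the liver pairs beside them, read 5′ to 3′ on the plus strand of mm9. Capitals mark the E-box CACGTG, its variant CACGTT, the D-box TTATGTAA or the receptor half-site AGGTCA, on either strand. The first is the part of the shared promoter site of Ciart that lies outside the gene, and the distal upstream site of Bhlhe40 is the part of the brain peak past Gm17055, a transcript that ends there.
Ciart shared promoter site, chr3:95686175-95686317: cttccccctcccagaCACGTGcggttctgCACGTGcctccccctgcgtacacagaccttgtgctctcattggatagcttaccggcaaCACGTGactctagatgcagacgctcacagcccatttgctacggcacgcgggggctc
Ciart strongest liver border pair, chr3:95686787-95686856: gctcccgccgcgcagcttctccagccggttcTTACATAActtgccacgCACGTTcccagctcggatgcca
Bhlhe41 shared downstream site, chr6:145804290-145804494: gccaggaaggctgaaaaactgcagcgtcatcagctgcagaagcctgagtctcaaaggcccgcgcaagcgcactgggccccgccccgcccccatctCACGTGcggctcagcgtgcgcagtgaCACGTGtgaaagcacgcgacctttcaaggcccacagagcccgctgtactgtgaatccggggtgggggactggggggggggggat
Bhlhe40 distal upstream site, chr6:108609412-108609520: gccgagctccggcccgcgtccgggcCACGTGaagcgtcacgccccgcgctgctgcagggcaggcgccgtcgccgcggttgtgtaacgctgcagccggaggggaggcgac
Bhlhe40 proximal upstream site, chr6:108610351-108610510: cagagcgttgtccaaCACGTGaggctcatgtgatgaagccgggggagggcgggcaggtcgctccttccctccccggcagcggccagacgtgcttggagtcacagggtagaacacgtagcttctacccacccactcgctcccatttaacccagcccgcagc
Bhlhe40 downstream site, chr6:108618472-108618571: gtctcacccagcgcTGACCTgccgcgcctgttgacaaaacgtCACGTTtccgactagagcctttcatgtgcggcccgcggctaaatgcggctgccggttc

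All 3 genes had peaks in both tissues and border pairs in liver. The window of Bhlhe40 held 4 eWAT peaks, 4 brain peaks and 38 liver borders. The window of Bhlhe41 held 3 eWAT peaks, 3 brain peaks and 27 liver borders, and that of Ciart held 1 eWAT peak, 3 brain peaks and 38 liver borders. Having a site at all was common among genes: 28.7% of protein-coding genes had an eWAT peak in a window of this kind, 41.5% a brain peak and 87.7% a liver border. A border pair, taken as a plus border followed by the next minus border 5 to 60 bp downstream, was present in 51% of gene windows. Bhlhe40, Bhlhe41 and Ciart had 5, 2 and 5 such pairs, against a median of 1 over all protein-coding genes. At least 5 pairs were present for 10.5% of protein-coding genes and at least 2 for 35.4%. The median number of liver borders per window was 10, while 7.47% of genes had 38 or more and 16.1% had 27 or more.

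The best sites of the 3 genes ranked high in the lists. Ciart had the eWAT peak of rank 9 and the brain peak of rank 9, ranks reached by 0.0895% and 0.112% of protein-coding genes. Bhlhe41 had the eWAT peak of rank 12 (0.0984% of genes) and the brain peak of rank 4 (0.0626%). For Bhlhe40 the best ranks were 192 in eWAT (1.22% of genes) and 20 in brain (0.152%). In liver the strongest border ranked 41 of 245360 at Ciart (0.139% of genes), 89 at Bhlhe40 (0.313%) and 297 at Bhlhe41 (1.1%). By rank alone, the order of the 3 genes was thus not the same in any 2 of the lists. The counting intervals given below for the best peaks of Ciart and Bhlhe41 overlap in eWAT and in brain. The order of Ciart and Bhlhe41 is therefore not resolved in either of these lists. By summed signal, the best liver pairs ranked 39 of 26563 at Ciart, 137 at Bhlhe41 and 200 at Bhlhe40, the order of the ranks in eWAT. These are descriptions of single lists, and the genes were chosen as clock repressors with earlier results of these data known.

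**Figure D1:**
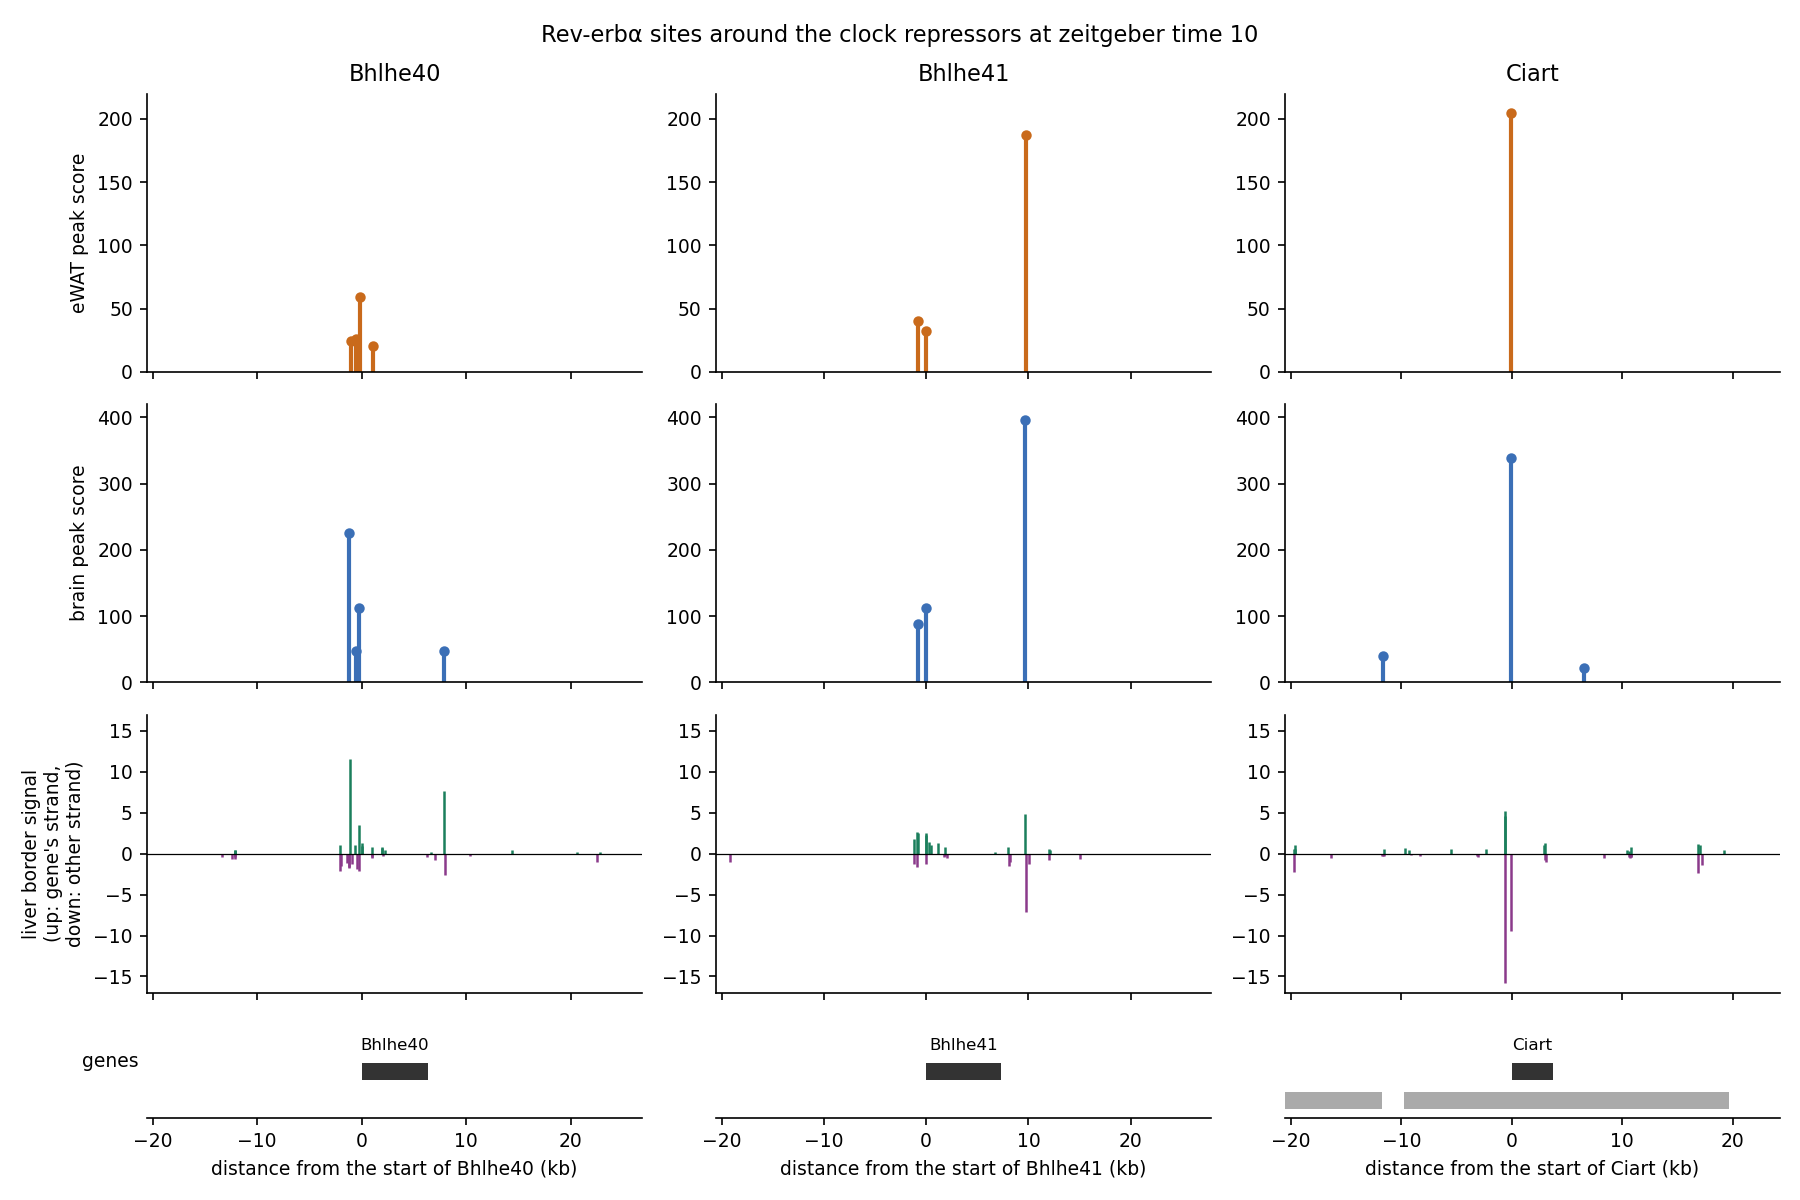
Peak scores in eWAT (top row) and brain (the row under it) and liver ChIP-exo border signals (the next row) are plotted against the distance in kb from the start of each gene, read in the gene's direction. Black bars are the 3 genes and grey bars other protein-coding genes, drawn in 1 row where they overlap. Ciart and Bhlhe41 have 1 dominant site at the same place in eWAT and brain, while Bhlhe40 has several sites upstream and, in brain and liver, 1 more downstream.

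At most of these sites eWAT and brain coincided. With sharing taken as an overlap of 1 bp or more, 7 of the 8 eWAT peaks were shared with brain, against 7.83% of all eWAT peaks. Of the 10 brain peaks 7 overlapped an eWAT peak, where 6.61% of all brain peaks did. Within 100 bp of their centres, 8 of the 8 eWAT peaks had a liver border (30% of the whole list), as did 9 of the 10 brain peaks (36.4%). With borders limited to the authors' p at or under 0.01, 1 of the 8 eWAT peaks and 2 of the 10 brain peaks had one, near the 10.5% and 9.83% of the whole lists. The eWAT peak with no brain partner was the one inside Bhlhe40. The 3 brain peaks with no eWAT partner were 1 downstream of Bhlhe40 and 2 in the window of Ciart.

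The peak scores within each list were whole multiples of 1 step, 1.01 in eWAT and 3.64 in brain, to within 0.06 after rounding. If each step is 1 read, a score can be given as a number of steps with an exact 95% Poisson interval, which covers counting error only. Peaks of 1 list whose intervals overlap are not told apart below.

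In eWAT and brain, Ciart carried its best site at the promoter. Its eWAT peak at chr3:95686168-95686317, centred 68 bp upstream of the gene start, scored 204.6, or 202 steps (interval 175 to 232). The brain peak at chr3:95686139-95686288, centred 39 bp upstream, scored 338.2, or 93 steps (75.1 to 114). The peaks overlapped by 121 bp, and both held 3 copies of CACGTG, as the first sequence above shows. In the whole lists 12 eWAT peaks (0.133%) and 10 brain peaks (0.0936%) held 3 or more copies. Among peaks of rank 100 or better, 4 of 100 in eWAT and 1 of 105 in brain did. The site also lies in an intron of C920021L13Rik, a protein-coding gene of the opposite strand that spans Ciart, so its assignment to Ciart rests on the nearest start.

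The other brain peaks in the Ciart window were weak. One, 6537 bp downstream of the gene start in an intron of C920021L13Rik, scored 21.8 (rank 6985, 6 steps, interval 2.2 to 13.1) and was the brain peak with no liver border within 100 bp. The other, 11649 bp upstream, scored 40 (rank 1821, 11 steps, 5.49 to 19.7) and lay 69 bp from a start of Aph1a, which encodes a subunit of gamma-secretase. Their intervals overlap each other and lie far below that of the promoter peak, which held 84.6% of the summed brain score of the window.

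In liver the strongest border near Ciart was at another position than the best peaks of eWAT and brain. The promoter site had a single plus border at position 95686252 with a signal of 9.48 (rank 138), and the next minus border downstream was 522 bp away. That border lies 10 bp before the last of the 3 E-boxes of the promoter site. The strongest border of the window, at 95686807 on the plus strand, had a signal of 15.8 (rank 41) and was 565 bp from the eWAT centre and 594 bp from the brain centre. It formed a pair with a minus border at 95686836 (signal 4.66), 29 bp apart and 647 bp upstream of the gene start. No eWAT or brain peak was listed at this pair, although both tissues had their best peak of the window within 608 bp of its middle.

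The Ciart liver pair enclosed a D-box. TTATGTAA, read on the minus strand in the second sequence above, began 11 bp after the plus border and ended 11 bp before the minus border, so it stood in the middle of the pair. A variant E-box, CACGTT, overlapped the minus border. The pair ranked 39 of 26563 by summed signal. A second pair in the same window, 16848 bp downstream in an intron of Mrps21, a mitochondrial ribosomal protein gene, had signals of 2.32 and 1.15 (rank 2237), was also 29 bp wide and also held TTATGTAA. One more, in an intron of Ciart, was 29 bp wide with signals of 0.758 and 1.33 and held none.

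Of the 12 liver pairs of the 3 genes, 2 held TTATGTAA between their borders, both in the Ciart window, against 1.32% of all 26563 pairs. The 3 Ciart pairs of 29 bp had a spacing found in 3.61% of all pairs (959). The D-box stood in 15.6% of those 959 pairs, and in 19% of the 100 pairs of highest summed signal. No eWAT or brain peak of the 3 genes held the D-box TTATGTAA (1.74% of all eWAT peaks and 1.55% of all brain peaks) or the related string TTATGCAA (2.05% and 0.926%), shares at which no match among 18 peaks is no result about these genes.

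Bhlhe41 carried its main site downstream of the gene and not at its start. The eWAT peak at chr6:145804290-145804439, 9714 bp past the gene start and beyond the gene's end, scored 187.4, or 185 steps (159 to 214). The brain peak at chr6:145804345-145804494, 9659 bp past the start, scored 396.3, or 109 steps (89.5 to 131). Both lie in intergenic sequence, overlap by 95 bp and hold the same 2 copies of CACGTG, seen in the Bhlhe41 sequence above. At least 2 copies were present in 1.41% of eWAT peaks and 0.983% of brain peaks. Among peaks of rank 100 or better the shares were higher, 21% in eWAT and 10.5% in brain. No other gene is annotated in the Bhlhe41 window.

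Liver borders marked the same place. A plus border at 145804341 with a signal of 7.09 and a minus border at 145804400 with a signal of 4.79 formed a pair 59 bp wide, of rank 137. The pair enclosed 1 of the 2 E-boxes, which ended 10 bp before the minus border, and the other began 11 bp after that border. The strongest border lay 23 bp from the eWAT centre and 78 bp from the brain centre.

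At the start of Bhlhe41 the binding was lower but present in all 3 tissues. The eWAT peak 27 bp past the start scored 32.4 (rank 839, 32 steps, interval 21.9 to 45.2), and the brain peak 5 bp past the start scored 112.7 (rank 96, 31 steps, 21.1 to 44). A liver pair 38 bp wide spanned the start, with signals of 1.29 and 2.34, and both peaks and the pair held 1 CACGTG. A further site upstream had an eWAT peak of 40.5 (753 bp, rank 488, 40 steps, 28.6 to 54.5) and a brain peak of 87.3 (798 bp, rank 212, 24 steps, 15.4 to 35.7). It held CACGTT and no CACGTG.

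In neither tissue could the start site and the upstream site of Bhlhe41 be told apart by their intervals, and both lay below the downstream site. The downstream peak scored 4.63 times the second peak of the window in eWAT and 3.52 times in brain. It held 72% and 66.5% of the summed score of the window.

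**Figure D2:**
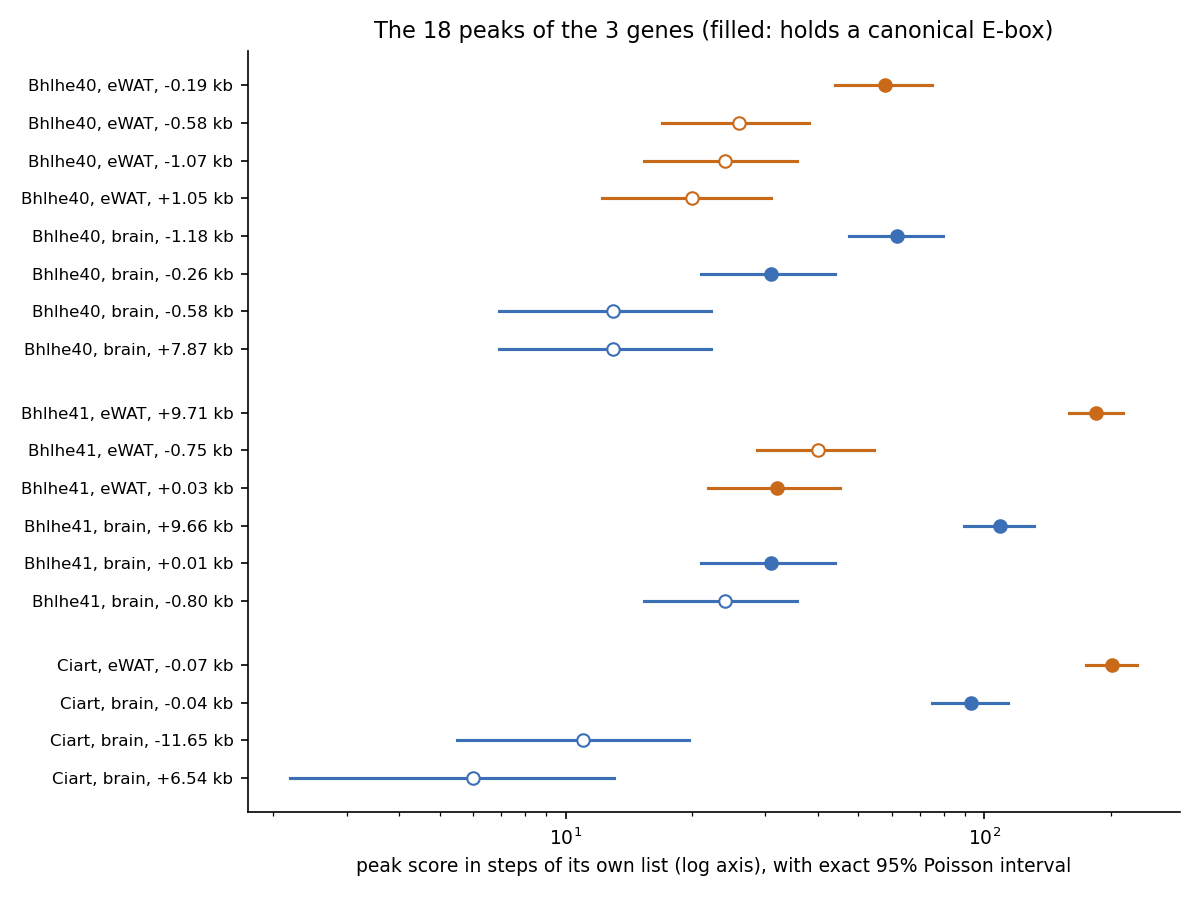
The score of each of the 18 peaks is shown in steps of its own list on a log axis, with the exact 95% Poisson interval as a line, eWAT in orange and brain in blue, and the distance of the peak centre from the gene start beside it. Filled points hold CACGTG, and the best peak of every gene in each tissue, between 58 and 202 steps, is filled; steps of eWAT and of brain are not on 1 scale.

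Bhlhe40 had 3 sites in the last 1178 bp before its start that were shared by eWAT and brain, and their order differed between the tissues. All 3 lie in an intron of 0610040F04Rik, a lincRNA of the opposite strand. The proximal peak in eWAT, at chr6:108610361-108610510 and centred 188 bp upstream, scored 58.8 (rank 192, 58 steps, interval 44 to 75). The distal eWAT peak, 1071 bp upstream, scored 24.3 (rank 1553, 24 steps, 15.4 to 35.7). In brain the distal peak, at chr6:108609371-108609520 and 1178 bp upstream, scored 225.4 (rank 20, 62 steps, 47.5 to 79.5), and the proximal one, 257 bp upstream, scored 112.7 (rank 96, 31 steps, 21.1 to 44).

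Taken as steps, the proximal site held 58 of the 82 steps of the 2 sites in eWAT, or 70.7% (exact binomial 95% interval 59.6 to 80.3). In brain it held 31 of 93, or 33.3% (23.9 to 43.9). The intervals cover counting error only, brain had 1 library, and the spread between animals was not measured. The peaks that were paired here were not at the same bases. The distal peaks overlapped by 43 bp with centres 107 bp apart, and the proximal ones by 81 bp with centres 69 bp apart. The distal E-box, shown in the fourth sequence above, is inside the brain peak and outside the eWAT peak.

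The middle site of Bhlhe40 was alike in position in the 2 tissues, with centres 4 bp apart. It scored 26.3 in eWAT (579 bp upstream, rank 1303, 26 steps, 17 to 38.1) and 47.3 in brain (583 bp, rank 1166, 13 steps, 6.92 to 22.2), and held neither E-box. An eWAT peak with no brain partner, 1054 bp past the start in an intron of Bhlhe40, scored 20.3 (rank 2301, 20 steps, 12.2 to 30.9). In eWAT the proximal peak stood above the intervals of the other 3, which overlap one another. In brain the distal peak stood above the others, while the interval of the proximal peak just reached that of the middle one.

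The strongest liver border at Bhlhe40 lay at the distal site. The plus border at 108609478 had a signal of 11.5 (rank 89). It was 33 bp from the centre of the distal brain peak and 957 bp from that of the best eWAT peak, the proximal one. The distal eWAT peak, at chr6:108609478-108609627, began at this border and had it within 100 bp of its centre. No minus border followed the plus border within 60 bp. The next was 212 bp away, and the minus borders at 108609439 and 108609450, with signals of 1.7 and 1.68, lay before the plus border. The proximal site had a pair 37 bp wide with signals of 3.52 and 2.15 (rank 789 among pairs), and its CACGTG began 11 bp after the plus border. Whether the border signals at the distal and proximal site differ beyond replicate error could not be tested.

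A site shared by brain and liver lay downstream of Bhlhe40. The brain peak at chr6:108618421-108618570, 7872 bp past the gene start in intergenic sequence, scored 47.3 (rank 1166, 13 steps). Its liver pair at 108618492 and 108618551 was 59 bp wide, with signals of 7.65 (rank 243) and 2.61, and ranked 200 among pairs. No eWAT peak was listed there. This was the only one of the 18 peaks of the 3 genes with AGGTCA, and in the last sequence above the half-site, read on the minus strand, ends 1 bp before the plus border, while a CACGTT lies between the borders.

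**Figure D3:**
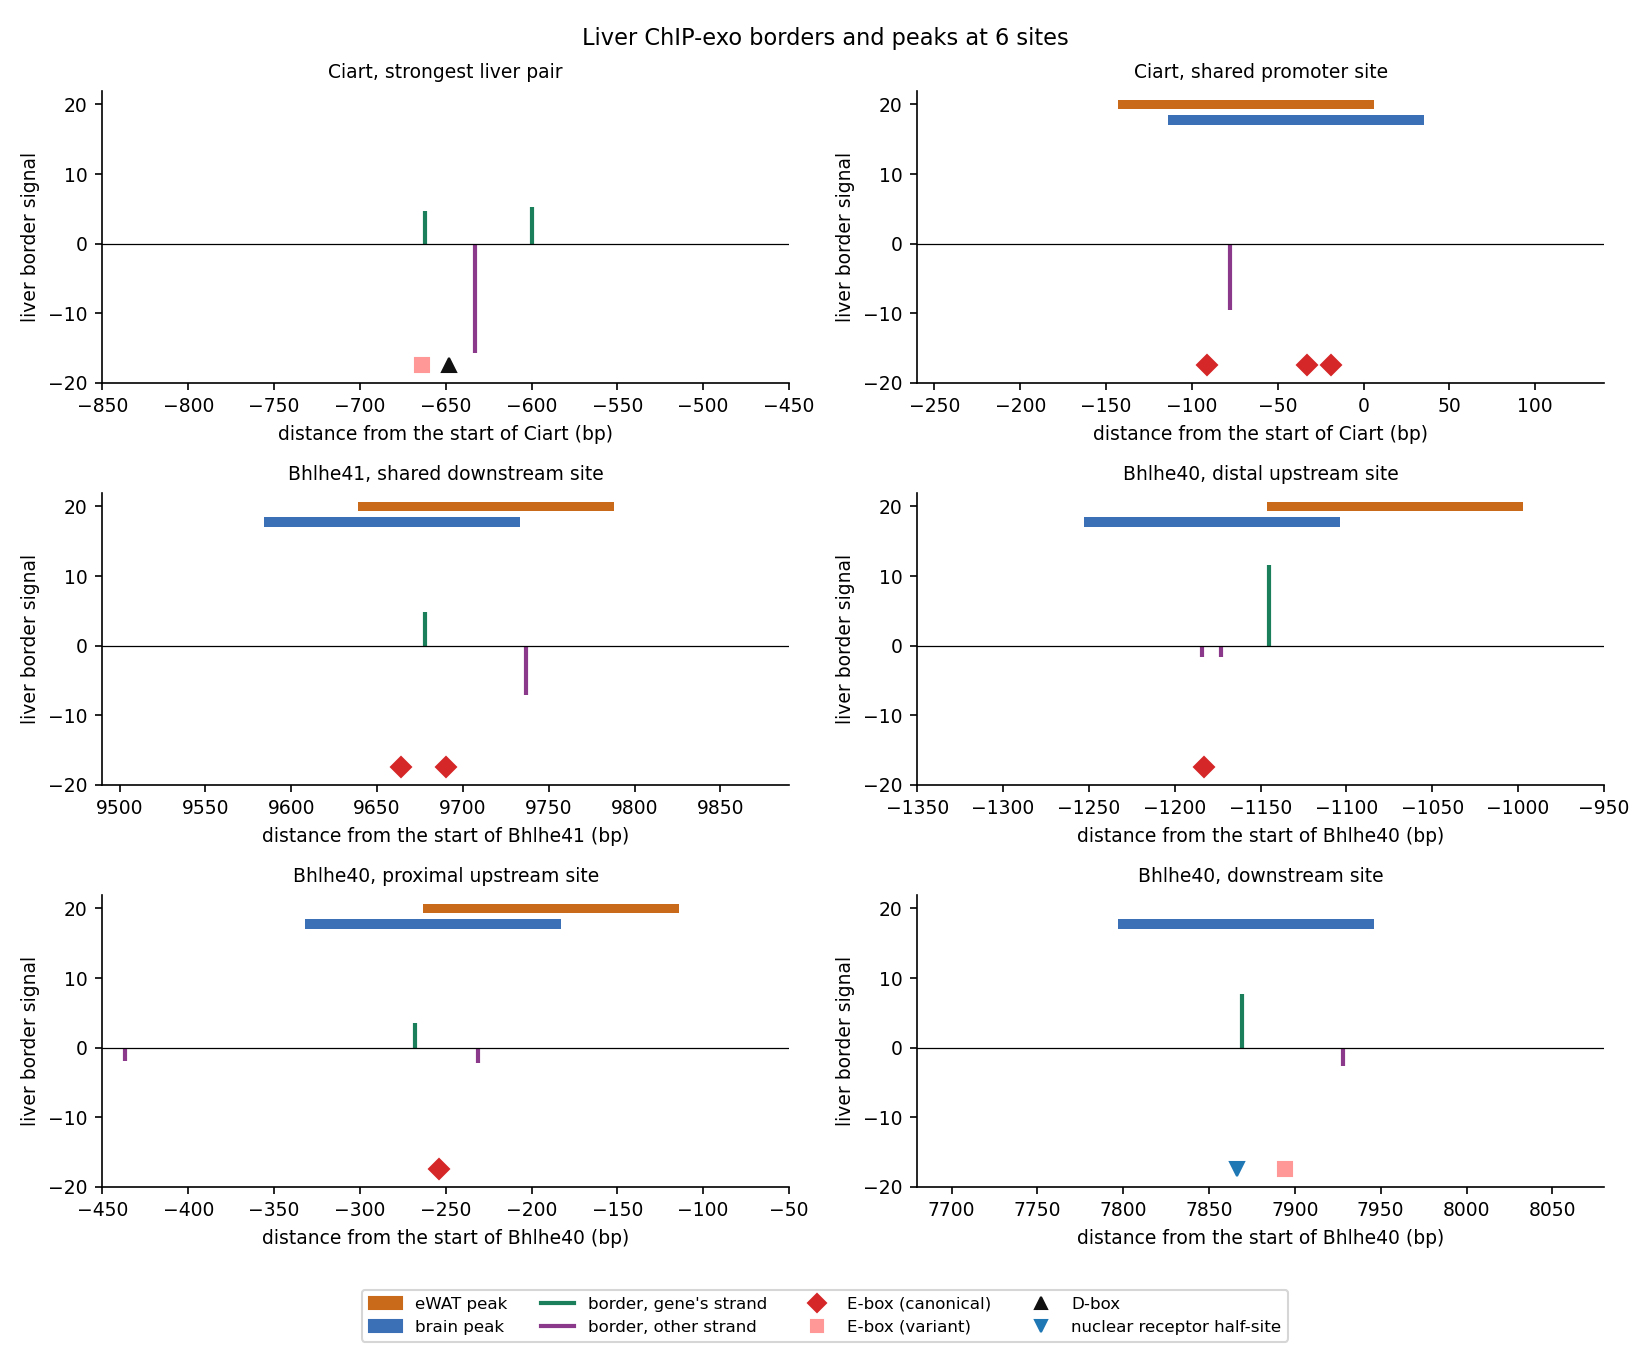
Liver border signals at 6 sites are drawn against the distance in bp from the gene start, up for the strand of the gene and down for the other strand, with the extent of the eWAT (orange) and brain (blue) peaks above and the motifs found inside peaks and pairs below. The strongest border, of signal 15.8, is 633 bp upstream of Ciart beside a D-box and has no peak of eWAT or brain over it.

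The GC box and the E-box CACGTG were present in more of the peaks of the 3 genes than the other motifs searched. CACGTG was present in 4 of the 8 eWAT peaks and 5 of the 10 brain peaks, against 11.4% and 8.17% of the whole lists. It too is more frequent near gene starts, in 18.4% of the eWAT peaks and 12.1% of the brain peaks centred within 1 kb of one. The eWAT and brain counts are not independent, since 7 of the 8 eWAT peaks overlapped a brain peak. The E-boxes of the 4 eWAT peaks all lay in brain peaks as well. The GC box GGGCGG, an element of many promoters bound by SP1, was present in 5 of the 8 eWAT peaks and 6 of the 10 brain peaks, against 3.72% and 20.8%. It is more frequent near gene starts, in 14.8% of the eWAT peaks and 42.1% of the brain peaks centred within 1 kb of one. All 6 best peaks, 1 per gene and tissue, held CACGTG and none held AGGTCA. Those of Ciart and of Bhlhe41 overlapped between the tissues and held the same E-boxes. High rank goes with CACGTG in general, which was present in 59% of the 100 eWAT peaks of best rank and in 34.3% of the 105 brain peaks of rank 100 or better. AGGTCA was present in 0 of the 8 eWAT peaks (19% of the list) and in 1 of the 10 brain peaks (11.7%), counts too small to set apart from the lists.

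No peak of the 3 genes held the RORE consensus or the RevDR2 letters, which were rare in all peaks as well. The RORE was present in 3.46% of eWAT peaks and 2.16% of brain peaks, and RevDR2 in 0.189% and 0.0842%. GGGTCA was present in 0 of the 8 eWAT peaks (13.7% of the list) and in 1 of the 10 brain peaks (11%), the one near Aph1a. Between the borders of the 12 liver pairs CACGTG was found in 3, against 5.3% of all pairs, and AGGTCA in 0, against 4.32%. The E-boxes in these 3 pairs also lie in eWAT and brain peaks counted above. The share of pairs with CACGTG depended on spacing, at 3.23% of pairs 29 bp apart and 8.36% of pairs 59 bp apart. A match describes the letters alone, and a missing match says nothing of which factors were bound.

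Promoters from RefSeq (GRCm38.p6, from 250 bases before to 50 after the start) were on hand for 2 of the 3 genes. That of Ciart held 3 copies of CACGTG and that of Bhlhe41 held 1, where 7.15% of 32851 promoters held any. The peaks at these starts, described above, also held 3 and 1 copies within 250 bases before the start. The promoter counts are therefore not a separate source from the peaks. Neither promoter held AGGTCA (16.3% of promoters) or TTATGTAA (0.938%).

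Set among the other clock genes, Ciart and Bhlhe41 stood high in the order in eWAT and brain, and Bhlhe40 stood near the middle. The median best rank of Bhlhe40, Bhlhe41 and Ciart was 12 in eWAT and 9 in brain. Of 20 other clock genes, 17 had an eWAT peak in the window, 18 a brain peak and 18 a liver pair, with median best ranks of 52 in eWAT and 44 in brain. The median over all protein-coding genes with a peak was 3512 in eWAT and 3030 in brain. Among the 23 clock genes together, Ciart placed 5 in eWAT and 7 in brain, Bhlhe41 placed 6 and 3, and Bhlhe40 placed 13 and 10. In brain, Bhlhe41 shared its place with Dbp, and Ciart shared its place with Per1. Nr1d1, which encodes Rev-erbα itself, held place 1 in both eWAT and brain. The liver order differed. By strongest border Ciart placed 3, Bhlhe40 placed 5 and Bhlhe41 placed 11. By best pair they placed 3, 8 and 6.

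**Figure D4:**
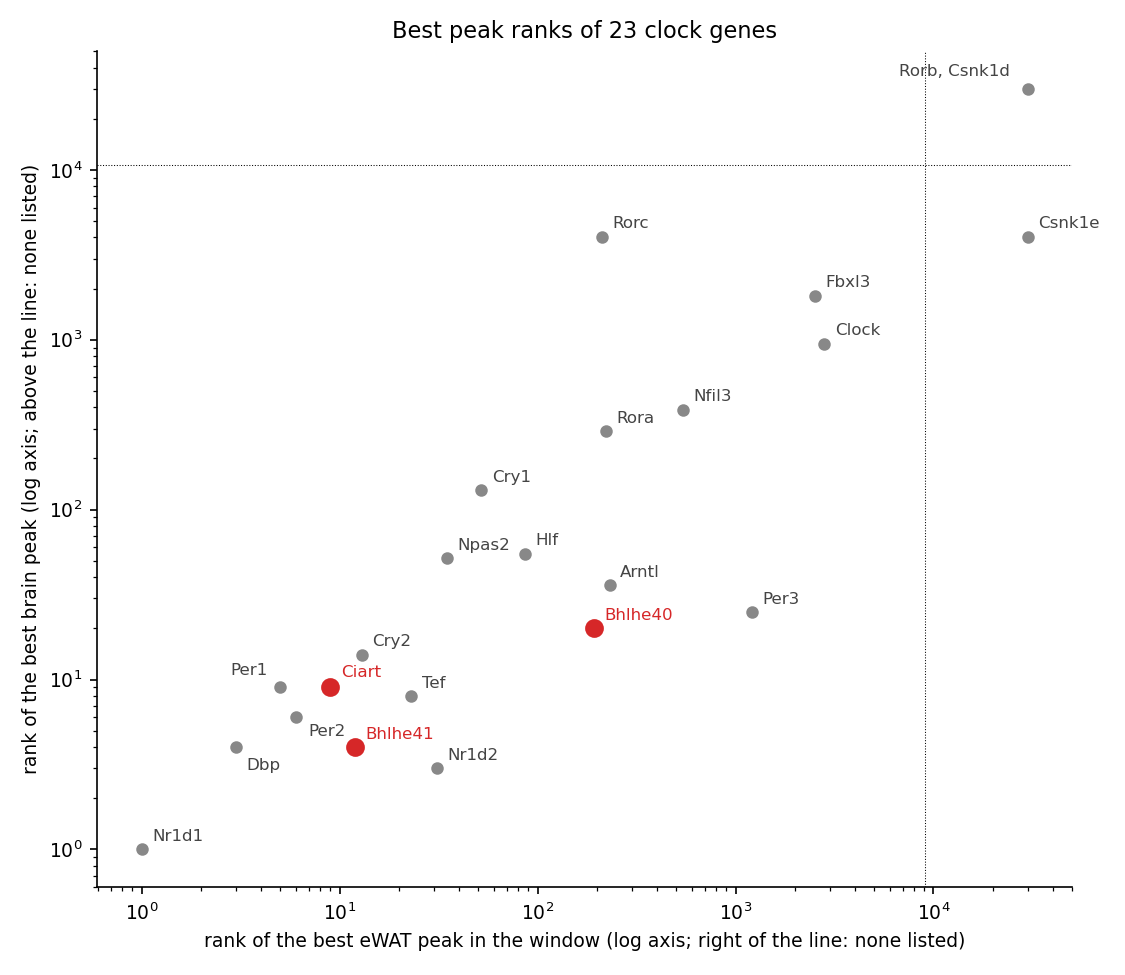
The rank of the best eWAT peak (horizontal) and of the best brain peak (vertical) in the window of each of 23 clock genes is plotted on log axes, with Bhlhe40, Bhlhe41 and Ciart in red, and genes with no peak listed beyond the dotted lines. Ciart (9 and 9) and Bhlhe41 (12 and 4) lie at the low end of both axes and Bhlhe40 (192 and 20) farther along the eWAT axis.

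The relatives of Bhlhe40 and Bhlhe41 by protein family were like protein-coding genes in general in how many had sites in brain and liver. Of 10 other genes of the basic helix-loop-helix Orange family (the Hes and Hey genes and Helt, mostly known as targets or partners of Notch signalling), 1 had an eWAT peak, Heyl, at rank 3959. The share among all protein-coding genes was 28.7%, and whether the 10 differ from it was not tested. Brain peaks were present for 5 of the 10, with a median best rank of 2367, and liver pairs for 6. Bhlhe41 had a peak of rank 100 or better in both tissues and Bhlhe40 in brain. Such a peak was present for 0.622% of protein-coding genes in eWAT and 0.689% in brain, and for 0 of the 10, which is near those shares. For brain peaks and liver pairs the counts of the 10 are near those of protein-coding genes in general (41.5% and 51%).

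The genes whose 3 best ranks were most like those of each repressor were found by the distance between log10 ranks in eWAT, brain and liver over 3893 to 3898 genes with a site in all 3 lists. For Ciart these were Per1 and Vamp2, neighbours that share their best sites (ranks 5, 9 and 40, distance 0.26), and Igsf8 (0.34). For Bhlhe41 they were Nr1d2 and Gm7084, which also share their sites (ranks 31, 3 and 171, distance 0.49), and Cry2 (0.55). For Bhlhe40 they included Coq10b (0.41) and Klf9 (0.76).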

How the data were processed

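Rev-erbα ChIP-seq and ChIP-exo lists were used as deposited. Per the submitters' processing notes, mm9 was the build, Bowtie 0.12.8 and HOMER (no version) were named for ChIP-seq and Bowtie 1.1.1 and HOMER for ChIP-exo, without roles. Whether replicates were pooled or inputs used, and the callers' settings, is not given in the sources used here. The deposited peak lines carry the authors' score, of undefined unit, for peaks 150 bp wide. Per the file headers, each border has the authors' signal, of unstated scale (median 0.471), and the authors' p-value, which ran from 0.00503 to 0.05; a deeper library or looser threshold would list more sites.

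Sites were placed by their central base on GENCODE vM1 gene models (NCBIM37), with Python 3.11.15, pandas 2.3.3, scipy 1.17.1 and pysam 0.24.0. Tied scores shared the best rank. Pairs were a plus border and the next minus one at 5 to 60 bp, and were ranked by summed signal. The 11 motifs, searched on both strands of the 150 bp of a peak or between the borders, were the half-site AGGTCA and its variant GGGTCA, RevDR2 and the RORE by name, the E-box CACGTG and its variant CACGTT, the D-box TTATGTAA and its variant TTATGCAA, the CRE TGACGTCA, the GC box GGGCGG and the CCAAT box. RevDR2 contains AGGTCA, and the RORE ends in AGGTCA or, in its variant, GGGTCA. No test was run; depth is unknown, and intervals cover counting error only. The counting of sites in windows, the finding of shared peaks, the pairing and the score step were tested on simulated data. The motif search was not.

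The members and lists were chosen with earlier results of these data known. Genes named are the 3 repressors, members of the clock and Orange family lists, genes in the windows, and the 3 genes nearest in log10 ranks to each repressor, leaving out genes that share its best sites. A result that this rule selects is not reported here. Alternatives changed the window, overlap, border distance, thresholds, motif width and background genes. The other 19 samples were not analysed here.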

Additional observations from a re-analysis of the deposited data

How the results depend on the processing

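Of 32 alternatives for the counts of sites, 25 stayed within 1.5 times of the value reported. With windows of 50 kb on each side there were 157 liver borders and 21 pairs. With borders of p at or under 0.01 only, 12 borders and 0 pairs were left, and a border lay near 1 of the 8 eWAT peaks (10.5% of the list) and 2 of the 10 brain peaks (9.83%), so the excess over the lists did not hold there. With borders within 50 bp, 5 of the 8 eWAT peaks had one (24.5% of the list) and 8 of the 10 brain peaks (27.4%). In each the stricter or wider rule itself changed how many sites could be counted. The share of all protein-coding genes with an eWAT peak ran from 22.5% at 10 kb to 43.3% at 50 kb. The CACGTG counts under narrower and wider searches were chosen after seeing the data and were 3 and 4 of 8 eWAT peaks and 5 and 5 of 10 brain peaks. Of the 9 genes most like the repressors, 7 were also named by the largest difference of the 3 log10 ranks. No paired analysis was possible because each group was deposited as 1 list with no values per replicate. The lists give no depth, so a site absent from a list may lie below its threshold.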

Other observations

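Some sites of the 3 genes were left outside the main account. In the Ciart window, a liver pair 6 bp wide in an exon of Car14, a carbonic anhydrase gene, had signals of 2.29 and 0.611, and its plus border had an authors' p of 0.00643. Of the 103 borders 51 were on the plus and 52 on the minus strand, and 72 had a signal above the list median of 0.471. The median border signal was 0.763 at Bhlhe40, 1.23 at Bhlhe41 and 0.559 at Ciart. A signal over 4 was present at 2, 2 and 4 borders of these genes. The lowest of these signals, 4.66 at Ciart, ranked 728 of 245360, with 0.297% of the list at or above it. The share of gene windows with such borders was not computed.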
